A study of Rattus norvegicus with 22 samples.

Results

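The genes described here encode the subunits of mitochondrial complexes I to V, the 4 complexes of the respiratory chain and the ATP synthase. They were chosen by name, as probes whose gene name on the array begins with Ndufa, Ndufb, Ndufc, Ndufs or Ndufv and a digit, is Sdha to Sdhd, begins with Uqcr, is Cyc1, begins with Cox4 to Cox8, or begins with Atp5. Assembly factors were left out. The rule took 85 gene names on 104 probes, of 26456 gene names on 30367 probes. Of these, 84 genes were well above background on all 22 arrays and were tested, among 23487 genes tested in all. The other one, Cox8c, a testis form of a complex IV subunit, was well above background on 0 arrays. Complex I had 37 tested genes, complex II 4, complex III 8, complex IV 15 and complex V 16. Ndufa4, named as a complex I subunit, was counted in complex IV, where it is now placed. The remaining 4 names do not encode subunits in the current annotation: Atp5s (Dmac2l), Atp5sl (Dmac2), Cox4nb (Emc8) and Cox6c1, a pseudogene of Cox6c. The array's names are kept below, with the current symbol in brackets where it differs.

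Complexes I and II pass electrons from NADH and succinate to ubiquinone, complex III passes them on to cytochrome c, and complex IV hands them to oxygen. Complexes I, III and IV pump protons across the inner mitochondrial membrane, and complex V uses the return of those protons to make ATP. Heart muscle draws most of its ATP from this machinery. Nearly all subunits are encoded in the nucleus, a few core ones on mitochondrial DNA, and complex II is wholly nuclear. Some complex IV subunits come in pairs, with a form used in heart and skeletal muscle and a form used widely, such as Cox8b and Cox8a or Cox6a2 and Cox6a1.

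Nuclear genes of the respiratory chain are known for promoters that bind NRF1, GABPA, ERR factors and YY1. Promoters of 300 bases (from 250 bases before the start site to 50 after) were available from RefSeq, build GRCr8, for 69 of the 81 subunit names. The letters searched, on both strands, were GCGCATGC for NRF1, CCGGAAGT for GABPA, TCAAGGTCA for ERR and AAGATGGCG for YY1. The NRF1 letters were in 9 of the 69 promoters (13.0%, against 2.47% of all 33469 promoters in the table). GABPA letters were in 8 (11.6%, against 3.81%), YY1 letters in 10 (14.5%, against 1.73%) and ERR letters in 2 (2.90%, against 0.433%). A shorter ERR form, AAGGTCA, which lies inside the longer one, was in 11 (15.9%, against 4.61%). At least 1 of the first 4 motifs was in 27 promoters (39.1%, against 7.95%). The NRF1 letters nearly read the same on both strands, so 1 place can match both ways. A match shows only that these letters are present. The subunit and background sets were not matched for base composition, and only the subunit set was limited to 1 promoter per gene name. One example for each complex, and both forms of Cox8, are shown because the results below turn on several of them. Each runs 5′ to 3′ from 180 bases before the start site to 30 after, on the gene's strand. Letters that match the first 4 motifs are in capitals, and the shorter ERR form is not marked.
Ndufs7 (complex I, YY1 letters, chr7:10110469-10110678, minus strand): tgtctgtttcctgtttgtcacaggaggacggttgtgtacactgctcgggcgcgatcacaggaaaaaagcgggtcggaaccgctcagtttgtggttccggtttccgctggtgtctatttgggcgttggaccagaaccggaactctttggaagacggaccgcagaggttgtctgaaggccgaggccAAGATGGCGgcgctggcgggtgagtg
Sdhb (complex II, NRF1 letters, chr5:158547754-158547963, plus strand): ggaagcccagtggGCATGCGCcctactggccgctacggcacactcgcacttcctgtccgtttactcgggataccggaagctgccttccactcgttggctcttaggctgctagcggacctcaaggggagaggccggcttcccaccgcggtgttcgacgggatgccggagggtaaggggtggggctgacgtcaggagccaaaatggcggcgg
Uqcrc1 (complex III, NRF1 and YY1 letters, chr8:118468043-118468252, plus strand): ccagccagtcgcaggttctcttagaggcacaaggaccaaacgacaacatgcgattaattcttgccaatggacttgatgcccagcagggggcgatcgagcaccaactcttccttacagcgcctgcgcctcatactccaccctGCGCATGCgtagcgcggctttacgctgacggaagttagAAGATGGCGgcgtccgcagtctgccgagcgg
Cox8a (complex IV, 2 matches to the GABPA letters, chr1:213833594-213833803, minus strand): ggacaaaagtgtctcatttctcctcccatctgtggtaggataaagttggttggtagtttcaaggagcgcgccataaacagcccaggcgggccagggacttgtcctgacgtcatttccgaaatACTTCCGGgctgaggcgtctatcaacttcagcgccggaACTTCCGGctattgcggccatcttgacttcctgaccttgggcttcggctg
Cox8b (complex IV, muscle form, 0 matches, chr1:205408244-205408453, minus strand): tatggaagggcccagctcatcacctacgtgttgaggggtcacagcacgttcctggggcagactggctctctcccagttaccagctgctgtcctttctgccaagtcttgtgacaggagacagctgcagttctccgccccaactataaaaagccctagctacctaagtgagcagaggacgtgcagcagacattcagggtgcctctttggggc
Atp5o (Atp5po, complex V, overlapping NRF1 letters on both strands, chr11:44657454-44657663, minus strand): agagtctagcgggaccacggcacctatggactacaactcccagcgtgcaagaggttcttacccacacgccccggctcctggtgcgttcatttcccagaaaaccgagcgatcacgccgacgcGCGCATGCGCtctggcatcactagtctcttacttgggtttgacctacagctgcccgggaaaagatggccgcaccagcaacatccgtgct
The widely used form Cox8a held GABPA letters and the muscle form Cox8b held none of the 4 motifs in its 300 bases.

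**Figure D1:**
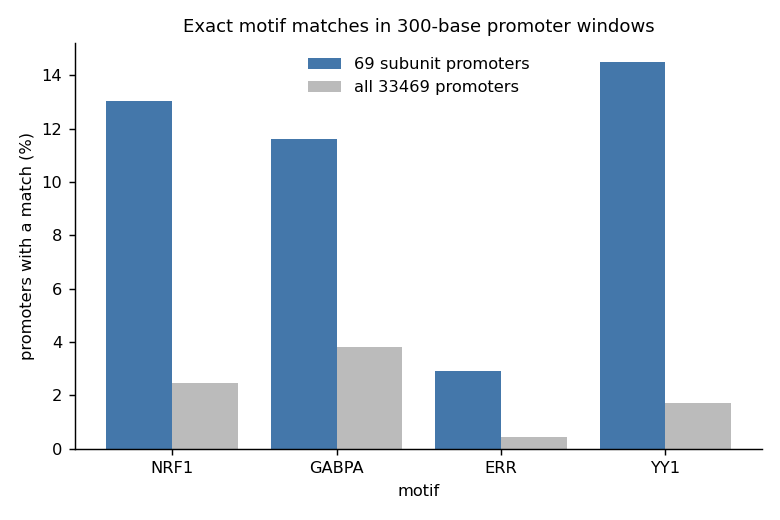
Percent of promoters (y axis) that held the NRF1, GABPA, ERR or YY1 letters (x axis), for the 69 subunit promoters (blue bars) and all 33469 promoters in the table (grey bars). The subunit share is the higher bar for each motif, for example 14.5% against 1.73% for YY1.

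The tissues were engineered cardiac tissues, in which heart cells are cast with matrix into a cylinder that is anchored at its ends. The cells came from embryo ventricle (Sprague Dawley rats, gestational day 14.5), and culture lasted 7 days in all groups. Control tissues (7 arrays) were not stretched. Stretch tissues (7 arrays) received cyclic uniaxial stretch at 0.5 Hz and 5% elongation for 48 h from culture day 5. BIRB796 tissues (4 arrays) received 10 µM of BIRB796, a p38 MAPK inhibitor per the treatment protocol, for 48 h, and stretch with BIRB796 tissues (4 arrays) received both. No allele or transgene was involved. The tissues are a mixture of ventricle cells, and the source tissue is named without a sort. In such bulk samples, fewer cells of a type and less RNA per cell cannot be told apart. The replicates are described as biological, but which litter or culture each came from is not given, so a p-value here reflects only how much these samples varied.

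Scanning took place in 3 sessions. Controls 1 to 3 and stretch 1 to 3 were in session 1, stretch 4 to 7 were alone in session 2, and controls 4 to 7 were in session 3 with both BIRB796 groups. Stretch against control is therefore a comparison of 3 against 3 in session 1, the BIRB796 comparisons are 4 against 4 in session 3, and stretch with BIRB796 against stretch crosses sessions. Within session 3, BIRB796 alone shared only slide 6 with control, with 1 array each. Controls 5 and 6 were on slide 7 and BIRB796 2 to 4 on slide 9, so slide and BIRB796 can hardly be told apart. Stretch with BIRB796 shared slides 6 and 8 with control. Stretch 4 and 5 differed by less than the noise between repeated spots and were counted as 1 sample, leaving 21. The 75th percentile of signal was lowest in session 2, at 853 to 2468, against 2942 to 4807 (session 1) and 2089 to 3621 (session 3). Levels below are log2 of the signal over that percentile of the same array; differences between groups are log2 fold changes. All 20 cardiomyocyte markers, sarcomere and calcium-handling genes, were above background on every array. Stretch 3, 6 and 7 stood apart in the members, and stretch 6 in these markers too.

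Differences between stretch and control passed the test used for 0 of the 84 genes. In the limma fit of all 21 samples with a scan session term, 0 genes had a Benjamini-Hochberg adjusted p under 0.05, against 0% of all genes tested. At an unadjusted p under 0.05 the counts were 0 members and 3.02% of all genes; in session 1 alone they were 0 members in either direction, against 1.01% of all genes higher and 1.73% lower. The members' median log2 fold change was 0.08, close to the 0.05 of all genes, with 59 genes higher and 25 lower. By complex, the median was 0.08 in complex I, 0.06 in II, 0.14 in III, 0.03 in IV and 0.06 in V. The highest were Ndufa10 (0.34), Ndufa4 (0.31), Uqcrb (0.31) and Ndufb3 (0.30), and the lowest Ndufc1 (-0.26), Ndufb4l1 (-0.25), Cox8b (-0.21) and Sdhc (-0.20). Ndufa10 was at 1.54, 1.70 and 1.47 in the session 1 controls and 1.83, 1.54 and 2.35 in stretch, and Ndufc1 at 1.38, 1.69 and 1.43 against 0.51, 0.92 and 2.29. In both, the groups overlap and stretch 3 is the highest of the 6. A core set of 9 subunits ran from -0.16 (Cox4i1) to 0.21 (Cyc1), with Ndufs1 at -0.14, Sdha at 0.08 and Atp5b at -0.04. Ndufa10 and Ndufb3 are accessory subunits of complex I, and Uqcrb is the ubiquinone-binding protein of complex III. The sign of the median rested on 1 sample. Without stretch 3, whose cardiomyocyte markers averaged 5.05 against 4.07 in control 3, the highest and lowest of session 1, the members' median was -0.12, with 21 genes higher and 63 lower and a median of 0.14 over all genes. The part of the marker level in this shift was not tested. With stretch, 16 of the 20 cardiomyocyte markers were higher (median 0.20) and 4 lower, where 58.5% of all genes were higher. All 11 tested macrophage markers were lower (-0.73). The part of these markers in the members' median was not tested either. Within session 1, 0 members had stretch and control values that did not overlap, where 4.52% of all genes lay wholly higher and 4.29% wholly lower in stretch.

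With the inhibitor alone, 0 of the 84 genes were called in the fit of all samples, against 0% of all genes. Members with an unadjusted p under 0.05 numbered 0, where 6.21% of all genes had one. Most members were slightly lower: 72 of 84 were lower with BIRB796 than in control, with a median of -0.10 against -0.03 over all genes, of which 45.1% were higher. Every complex had a median below 0, at -0.09 in complex I (32 of 37 lower), -0.18 in II (4 of 4), -0.13 in III (8 of 8), -0.12 in IV (11 of 15) and -0.09 in V (15 of 16). The count for complex III uses 1 of 2 Uqcrb probes, and the other gave 0.19. The lowest members were Cox8b (-0.67), Ndufb4l1 (-0.49), Cox7c (-0.29, a dim probe) and Sdha (-0.29). The highest were Cox7a2l (0.19) and Ndufa5 (0.15). The session 3 arrays varied less, so a fit of that session alone had a median standard error of 0.0851 for the members against 0.219 in the fit of all samples. That fit called 0 members, where 0.737% of all genes were called higher and 1.06% lower. At an unadjusted p under 0.05 it had 11 members lower (13.1%), against 11.4% of all genes, and 0 higher, against 7.14%. The values of 9 members did not overlap between the groups, all lower with BIRB796 (10.8%, against 6.98% of all genes), among them Atp5e (Atp5f1e), Cox5a, Cox5b, Cox8b, Ndufb10, Ndufb4l1, Ndufs6 and Sdha. Members wholly higher numbered 0 (4.87% of all genes). The 13.1% is near its background, and the 10.8% lies above its own, a difference that has no test. These 2 groups shared slide 6 alone. The markers of other cells moved in the same session: the summed linear level of 10 smooth muscle genes was 39.9 to 52.6 in controls and 59.2 to 86.9 with BIRB796, and 8 of the 10 were higher. Of them Myh11 (1.61 ± 0.28 SE), Tagln and Acta2 passed the session 3 fit. All 11 tested macrophage markers were lower (summed level of 10, 98.6 to 187 in controls and 99.3 to 136 with BIRB796), as were all 8 mesothelial markers (4.26 to 6.74 and 1.96 to 3.61). Cardiomyocyte markers were lower in 14 of 20 (median -0.08) and higher in 6. Endothelial markers were lower in 8 of 10 (-0.40) and higher in 2. The part of all these markers in the small shift of the members was not tested.

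**Figure D2:**
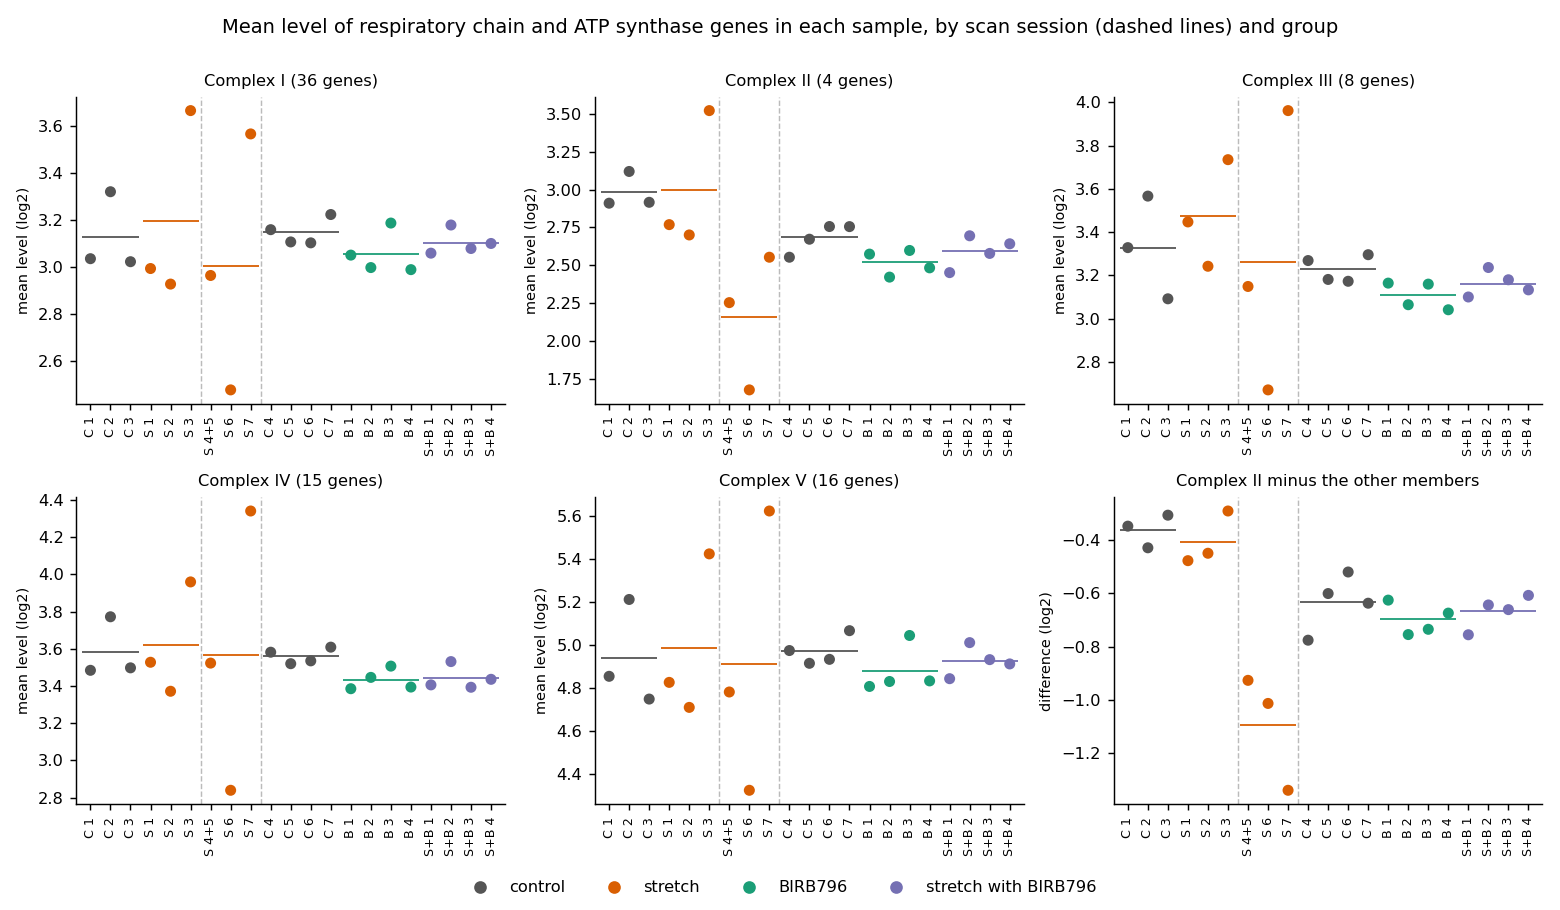
Mean log2 level of the genes of each complex (y axis, log2 signal over the array's 75th percentile) in each of the 21 samples (x axis: C control, S stretch, B BIRB796, S+B both), with the difference of complex II from the other members in the last panel. Dashed lines part the scan sessions and bars are group means within a session; the session 3 groups lie close together, while stretch 6 is lowest in every complex.

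With stretch and BIRB796 together, 0 of the 84 genes were called in the fit of all samples, where 18 genes, 0.0766% of all tested, were called. The members' median was -0.04 against 0.04 over all genes, with 30 higher and 54 lower. The median was -0.02 in complex I, -0.08 in II, -0.08 in III, -0.09 in IV and -0.03 in V. Relative to all genes the members' median was lower by 0.07 to 0.13 under each of the 5 scalings tried, although scaling by the array median turned the median itself to 0.03. Without the session term it lay above that of all genes instead, by 0.19, and with BIRB796 alone by 0.21, and with the replicate block the medians for both treatments were -0.06 and -0.12 over all genes. The lowest were Cox8b (-1.16), Ndufs7 (-0.29), Sdha (-0.24) and Uqcrfs1 (-0.24), and the highest Cox7a2l (0.20), Ndufa5 (0.19), Uqcrb (0.15) and Ndufa4 (0.13). Cox8b was the only member with an unadjusted p under 0.05 in this fit, where 9.33% of all genes had one. In session 3 alone, Cox8b was called lower, 1 of 84 members, against 4.33% of all genes called lower and 3.27% higher. At an unadjusted p under 0.05, 8 members were lower (9.52%), against 12% of all genes, and 1 higher (1.19%), against 12.6%. The values of 12 members lay wholly below the controls (14.5%, against 7.96% of all genes), among them Cox8b, Cox8a, Cox7b, Ndufs1, Ndufs7, Ndufv1, Sdha and Uqcrfs1, and those of 0 lay wholly above (8.81%). Markers of other cells differed in the same comparison and session: 4 of 10 endothelial genes (median -0.83), 5 of 11 macrophage genes (-0.73) and 2 of 8 mesothelial genes (-1.15) were called lower. Of the smooth muscle genes 5 of 10 (1.06) and of the fibroblast genes 2 of 12 (0.29) were called higher. Their part in the members' values was not tested. The comparisons with BIRB796 alone and with both treatments share their control samples.

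Cox8b, the heart and skeletal muscle form of a small complex IV subunit, was the member that differed most. Its levels in the session 3 controls were 3.11, 2.92, 3.04 and 2.71. With BIRB796 they were 2.18, 2.38, 2.40 and 2.16, and with stretch and BIRB796 they were 1.20, 2.34, 1.75 and 1.84. Every sample of both inhibitor groups lay below every session 3 control, and the inhibitor groups overlapped in 1 value. In session 1 the controls were at 3.23, 3.53 and 2.67 and the stretch samples at 2.36, 2.73 and 3.72, which overlap. In session 2, stretch 4 and 5 averaged 2.72, stretch 6 was at -0.89 and stretch 7 at 2.12. Against control, stretch with BIRB796 gave -1.16 ± 0.53 (SE) in the fit of all samples, a fold of 0.448, with a 95% interval of -2.28 to -0.04 and a limma adjusted p of 0.513. In session 3 alone the same difference had an SE of 0.20, an interval of -1.60 to -0.72 and a limma adjusted p of 0.0151. BIRB796 alone gave -0.67 ± 0.20 (SE) in session 3, with a limma adjusted p of 0.105. The difference between the 2 inhibitor groups was -0.49 ± 0.20 (SE), with a limma adjusted p of 0.529. Cox8b kept its direction within slides: with stretch and BIRB796 it was at -1.90 against control on slide 6 and -0.66 on slide 8. With BIRB796 alone it was at -0.93 on slide 6, the only slide shared with control, with 1 array each. Its widely used partner Cox8a moved less, at 5.60, 5.50, 5.52 and 5.58 in the session 3 controls, 5.36, 5.37, 5.51 and 5.35 with BIRB796, and 5.38, 5.50, 5.41 and 5.42 with both. The difference of Cox8b from Cox8a in the same sample was -2.60 ± 0.18 (SD, n = 4) in controls, -3.12 ± 0.09 (SD, n = 4) with BIRB796 and -3.64 ± 0.42 (SD, n = 4) with both. The summed level of the 20 cardiomyocyte markers was 1113 to 1504 in these controls, 1079 to 1235 with BIRB796 and 1179 to 1307 with both. In session 3 alone, with both treatments, 2 of these 20 were called, the calcium pump gene Atp2a2 lower (-0.45, limma adjusted p 0.0182) and the sarcomere gene Csrp3 higher (0.41, limma adjusted p 0.0452). That of the smooth muscle markers was 62.4 to 102 with both, above all 4 controls. The part of these markers in the Cox8b difference was not tested. The within-sample difference of the pair carries the unknown response of each probe, so only its change between groups can be read. The probe for Cox8b lies on chr1:201057325-201057384 (minus strand) in build rn4, the build of the array's annotation.

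**Figure D3:**
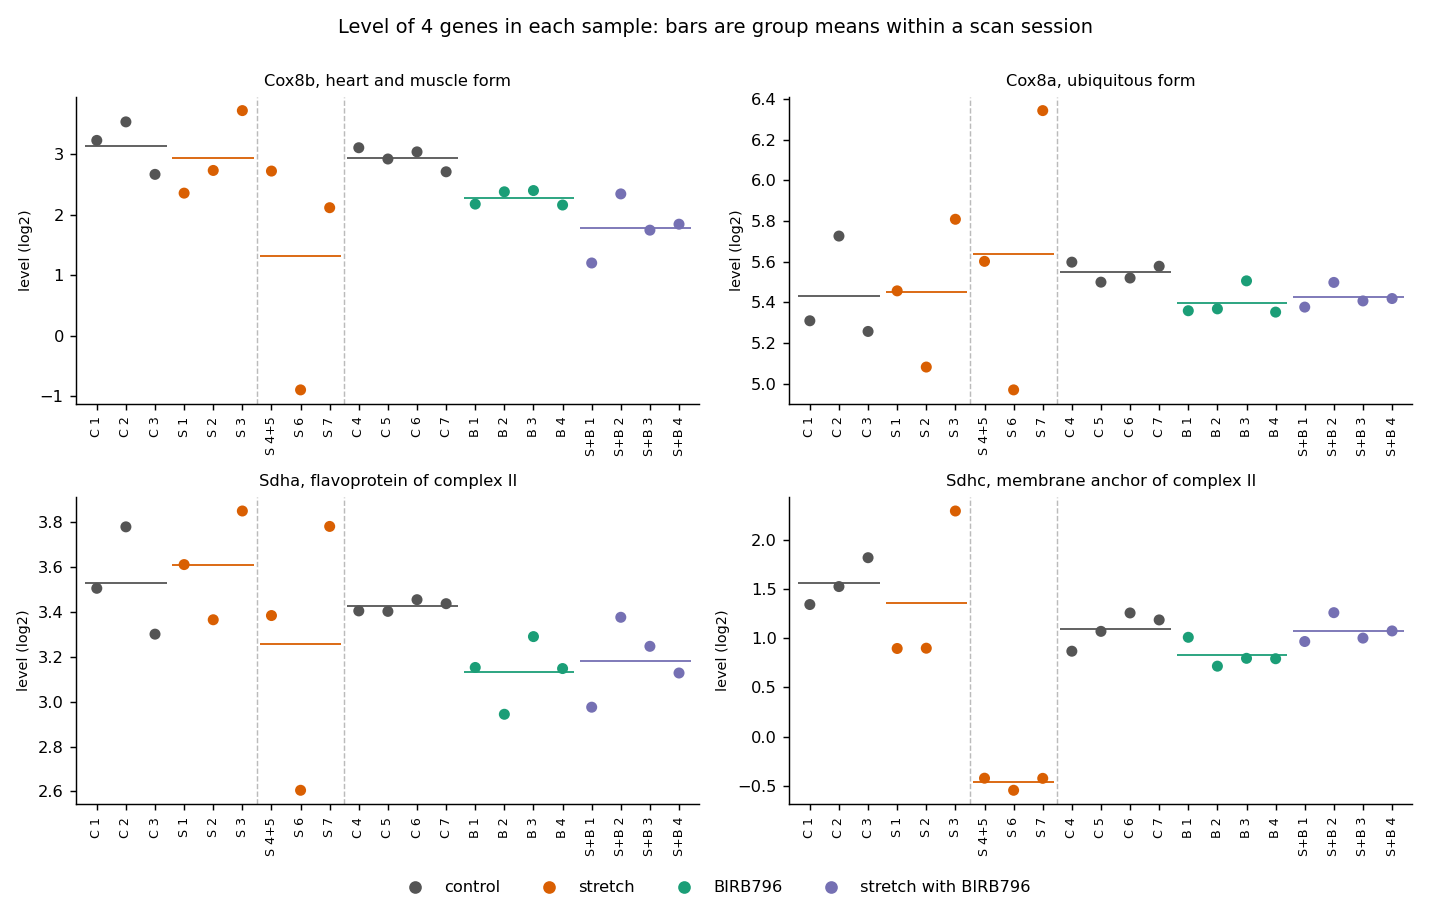
Log2 level (y axis, log2 signal over the array's 75th percentile) of Cox8b, Cox8a, Sdha and Sdhc in each sample (x axis: C control, S stretch, B BIRB796, S+B both), with dashed lines between scan sessions and bars at group means within a session. Both BIRB796 groups lie below the session 3 controls for Cox8b and Sdha, and the session 2 stretch samples lie apart for Sdhc.

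Other forms of complex IV subunits were read the same way, with no test of the difference between pairs. Cox6a2, the muscle form of subunit VIa, had session 3 control levels of 5.70, 5.96, 5.89 and 6.24. With BIRB796 it was at 5.94, 5.78, 5.94 and 5.64, and with both at 6.17, 6.18, 5.97 and 5.93. These groups overlapped, with differences from control of -0.12 with BIRB796 and 0.12 with both. Its partner Cox6a1 differed by -0.06 and 0.09. Cox4i2, the form of subunit IV known for its response to low oxygen, differed by 0.05 and -0.13, and its partner Cox4i1 by -0.16 and -0.21, all short of the threshold. Cox6b2, a testis form also detected here, differed by -0.08 and -0.09. Cox7a2 differed by -0.12 and -0.08. Cox7a2l, which helps complexes III and IV join into supercomplexes, ran the other way from most members. Its session 3 controls were at 4.60, 4.48, 4.39 and 4.82, the BIRB796 samples at 4.81, 4.78, 4.71 and 4.76 and those with both at 4.77, 4.81, 4.77 and 4.75. Control 7 lay above every inhibitor sample and the other 3 controls below, and neither difference (0.19 and 0.20) was called.

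In complex I, Ndufs1, Ndufs7, Ndufv1 and Ndufv2 form part of the arm that takes electrons from NADH over iron-sulphur clusters. Ndufs7 was at 2.48, 2.38, 2.43 and 2.32 in the session 3 controls and at 2.11, 2.22, 2.09 and 2.02 with stretch and BIRB796, groups that did not overlap. The difference was -0.29 ± 0.10 (SE) in session 3 alone, with a limma adjusted p of 0.103. With BIRB796 alone it was at 2.24, 2.11, 2.50 and 2.02, with 1 sample above all controls. Ndufs1, the largest subunit, was at 2.68, 2.71, 2.77 and 2.80 in controls and 2.38, 2.63, 2.55 and 2.53 with both treatments, a difference of -0.21. Ndufv1, which binds NADH, gave -0.15 with BIRB796 and -0.19 with both. Ndufb4l1, named as a near copy of Ndufb4, was at -1.61, -1.80, -1.57 and -1.97 in controls, -2.16, -2.32, -2.26 and -2.17 with BIRB796, and -1.80, -1.64, -2.10 and -1.97 with both. Only the BIRB796 samples lay apart, and the session 3 fit gave -0.49 ± 0.12 (SE), with a limma adjusted p of 0.0602. Ndufb4 itself differed little, at 4.80, 4.73, 4.86 and 5.16 in controls and 4.70, 4.80, 4.82 and 4.84 with BIRB796. Probes of such near copies (also Ndufa10l1 and Atp5hl1) may read RNA of either gene. Ndufa5, a small accessory subunit, was higher by 0.15 with BIRB796 and 0.19 with both, short of the threshold.

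Complex II is the smallest of the 5 and the one that is also an enzyme of the tricarboxylic acid cycle. Sdha, its flavoprotein, was at 3.41, 3.40, 3.46 and 3.44 in the session 3 controls. It was at 3.15, 2.94, 3.29 and 3.15 with BIRB796 and at 2.98, 3.38, 3.25 and 3.13 with both. Every inhibitor sample lay below every control of that session. The differences were -0.29 ± 0.10 (SE) and -0.24 ± 0.10 (SE) in session 3 alone, with limma adjusted p of 0.138 and 0.150. On slide 6, the only slide that BIRB796 alone shared with control, Sdha differed by -0.25, with 1 array each. Sdhb, the iron-sulphur subunit, gave -0.01 and 0.04 against control, and Sdhd, a membrane anchor, -0.09 and -0.15. Sdhc, the other anchor, differed between sessions more than between treatments. Its session 1 values were 1.34, 1.52 and 1.82 in controls and 0.90, 0.90 and 2.29 in stretch, which overlap. The session 3 samples ran from 0.72 to 1.26. The session 2 stretch samples were at -0.42, -0.55 and -0.42, below all other samples. Session 2 held stretch samples alone, so session and stretch cannot be told apart there. With the session term the stretch difference of Sdhc was -0.20 ± 0.27 (SE). With a term that instead pools sessions 2 and 3, it was -0.92 with a limma adjusted p of 0.0312, while the other alternatives gave adjusted p of 0.0771 or more. Without stretch 3 it was -0.66. The mean of complex II relative to the mean of the other members followed the session as well: it ran from -0.48 to -0.29 in session 1, from -0.78 to -0.52 in session 3 and from -1.34 to -0.93 in session 2.

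No member of complex III or complex V was called, although all 8 of complex III were lower with BIRB796 (median -0.13, all genes -0.03). For Uqcrb this depends on the probe: the one counted gave -0.03 and its other probe 0.19. Uqcrfs1, the Rieske iron-sulphur protein, was at 4.12, 4.10, 4.13 and 3.96 in the session 3 controls, 3.89, 3.85, 4.08 and 3.77 with BIRB796 and 3.69, 3.93, 3.83 and 3.90 with both. The last group lay below all controls, at -0.24 ± 0.09 (SE) and a limma adjusted p of 0.113 in session 3 alone. Cyc1, the cytochrome of complex III that feeds cytochrome c, gave -0.11 in both comparisons. Atp5a1 (Atp5f1a), the alpha subunit of the ATP synthase, was at 6.16, 6.22, 6.32 and 6.54 in controls, 6.18, 6.29, 6.44 and 6.34 with BIRB796 and 6.39, 6.44, 6.44 and 6.26 with both. Atp5b (Atp5f1b), the catalytic beta subunit, gave -0.01 and -0.03. The groups overlapped for both.

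Stretch in the presence of the inhibitor was read within session 3. Of the 84 genes, 0 were called, against 0% of all genes in the fit of all samples and, in session 3 alone, 0.0681% called higher and 0.00852% lower. At an unadjusted p under 0.05 there were 0 members against 1.88% of all genes, and in session 3 alone 4 higher (4.76%, against 5.83%) and 1 lower (1.19%, against 2.66%). The members' median was 0.04 against 0.05 over all genes, with 59 higher and 25 lower. The lowest were Cox8b (-0.49), Cox4i2 (-0.19), Ndufa10l1 (-0.16) and Ndufs7 (-0.11). The highest were Ndufb4l1 (0.35), Uqcrq (0.26, a dim probe), Sdhc (0.25) and Cox6a2 (0.24). The values of 2 members did not overlap, both higher with stretch, Ndufb4l1 and Ndufc2 (2.38%, against 4.44% of all genes), and 0 lay wholly lower (1.81%). Against stretch alone, stretch with BIRB796 also had 0 members called, against 0% of all genes, with a median of -0.12 against -0.01 and 19 genes higher and 65 lower. At an unadjusted p under 0.05 there were 0 members, against 2.27% of all genes. Cox8b (-0.95), Uqcrfs1 (-0.34), Ndufv1 (-0.33) and Sdha (-0.32) were lowest, and Ndufc1, Sdhc and Cox4nb highest, at 0.18 each. That difference is carried across sessions by the controls, and without stretch 3 its median was 0.08. The interaction, the effect of stretch with BIRB796 present minus that without, had 0 members called, against 0% of all genes, and 0 with an unadjusted p under 0.05, against 1.38%. Its median was -0.05 (34 higher, 50 lower), and 0.14 without stretch 3. It ran from -0.29 for Cox8b to 0.60 for Ndufb4l1.

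How large a change could have been missed was read from the 95% intervals. In session 3 alone, the interval lay within a 2-fold change either way for 83 of 84 members with BIRB796 and with both treatments, against 77.5% and 76% of all genes. It did so for all 84 for stretch in the presence of the inhibitor. For stretch against control in session 1 alone it did so for 75 of 84, against 62.3% of all genes. For stretch with BIRB796 against stretch, across sessions, it did so for 64 of 84, against 42.9% of all genes. The members were brighter than most genes, and the shares of all genes were not matched for signal level.

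**Figure D4:**
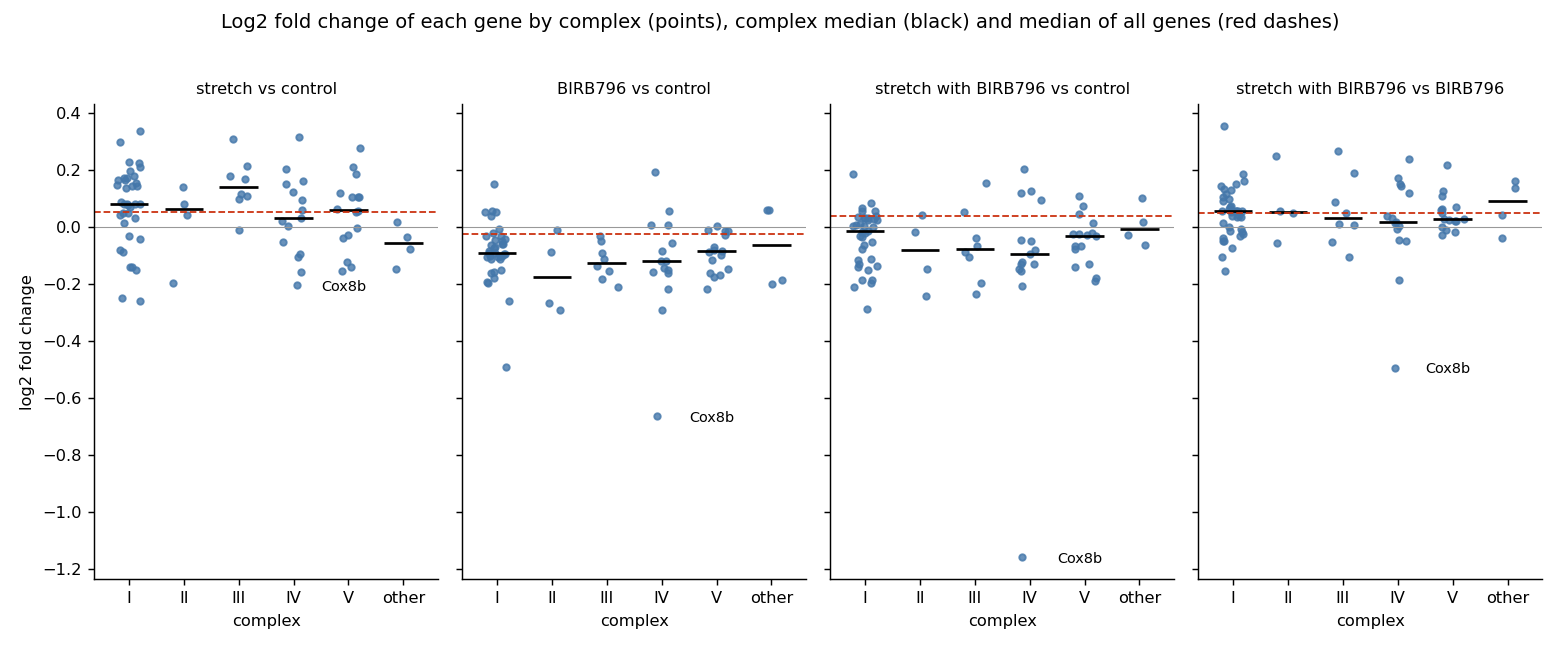
Log2 fold change of each tested member (points, y axis) by complex (x axis; other: the 4 names outside the complexes) in 4 comparisons, with black bars at the median of each complex and red dashes at the median of all genes tested. Most members lie within a narrow band around the median of all genes, and Cox8b is the lowest point in the comparison of both treatments with control.

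The members varied together from sample to sample. Across the 21 samples, the median correlation of a member with the mean of the other members was 0.74, against 0.18 for all genes with that mean. In the 12 session 3 samples it was 0.66, against -0.02. Without stretch 3, 6 and 7 it was 0.45, against 0.13. These samples share group, session and array scaling, so the values are a description. The lowest correlation was that of Cox6b2 over all samples (-0.14), of Cox4i2 in session 3 (-0.57) and of Cox7a2l without stretch 3, 6 and 7 (-0.32). The mean level of the members ran from 3.13 to 3.36 in session 3, but was 2.64 in stretch 6, 3.80 in stretch 3 and 3.83 in stretch 7. Stretch 6 was the lowest of all samples for 57 members (67.9%, against 8.25% of all genes), stretch 7 the highest for 43 (51.2%, against 22.4%) and stretch 3 the highest for 33 (39.3%, against 7.47%). The mean of the 20 cardiomyocyte markers was 2.98 in stretch 6, 4.98 in stretch 7 and 5.05 in stretch 3, and 4.62 to 5.03 in session 3. Its part in the members' level was not tested. Uqcrq, a small complex III subunit, differed between sessions: it ran from -3.29 to -2.13 in session 1, from -5.50 to -4.12 in session 3 and from -4.65 to -3.09 in the session 2 stretch samples. Its probe is dim, in session 3 below the median of all genes on each array (-3.52 to -3.27). In session 3 the members varied less than other genes, with a median SD of 0.09 among controls against 0.19 for all genes. The members were also far brighter, with a median level of 3.88 to 3.98 in these controls against -3.36 to -3.27 for all genes. Neither the spread nor the correlations were compared at matched signal level. Among the session 2 stretch samples the median SD was 0.64 against 0.58.

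**Figure D5:**
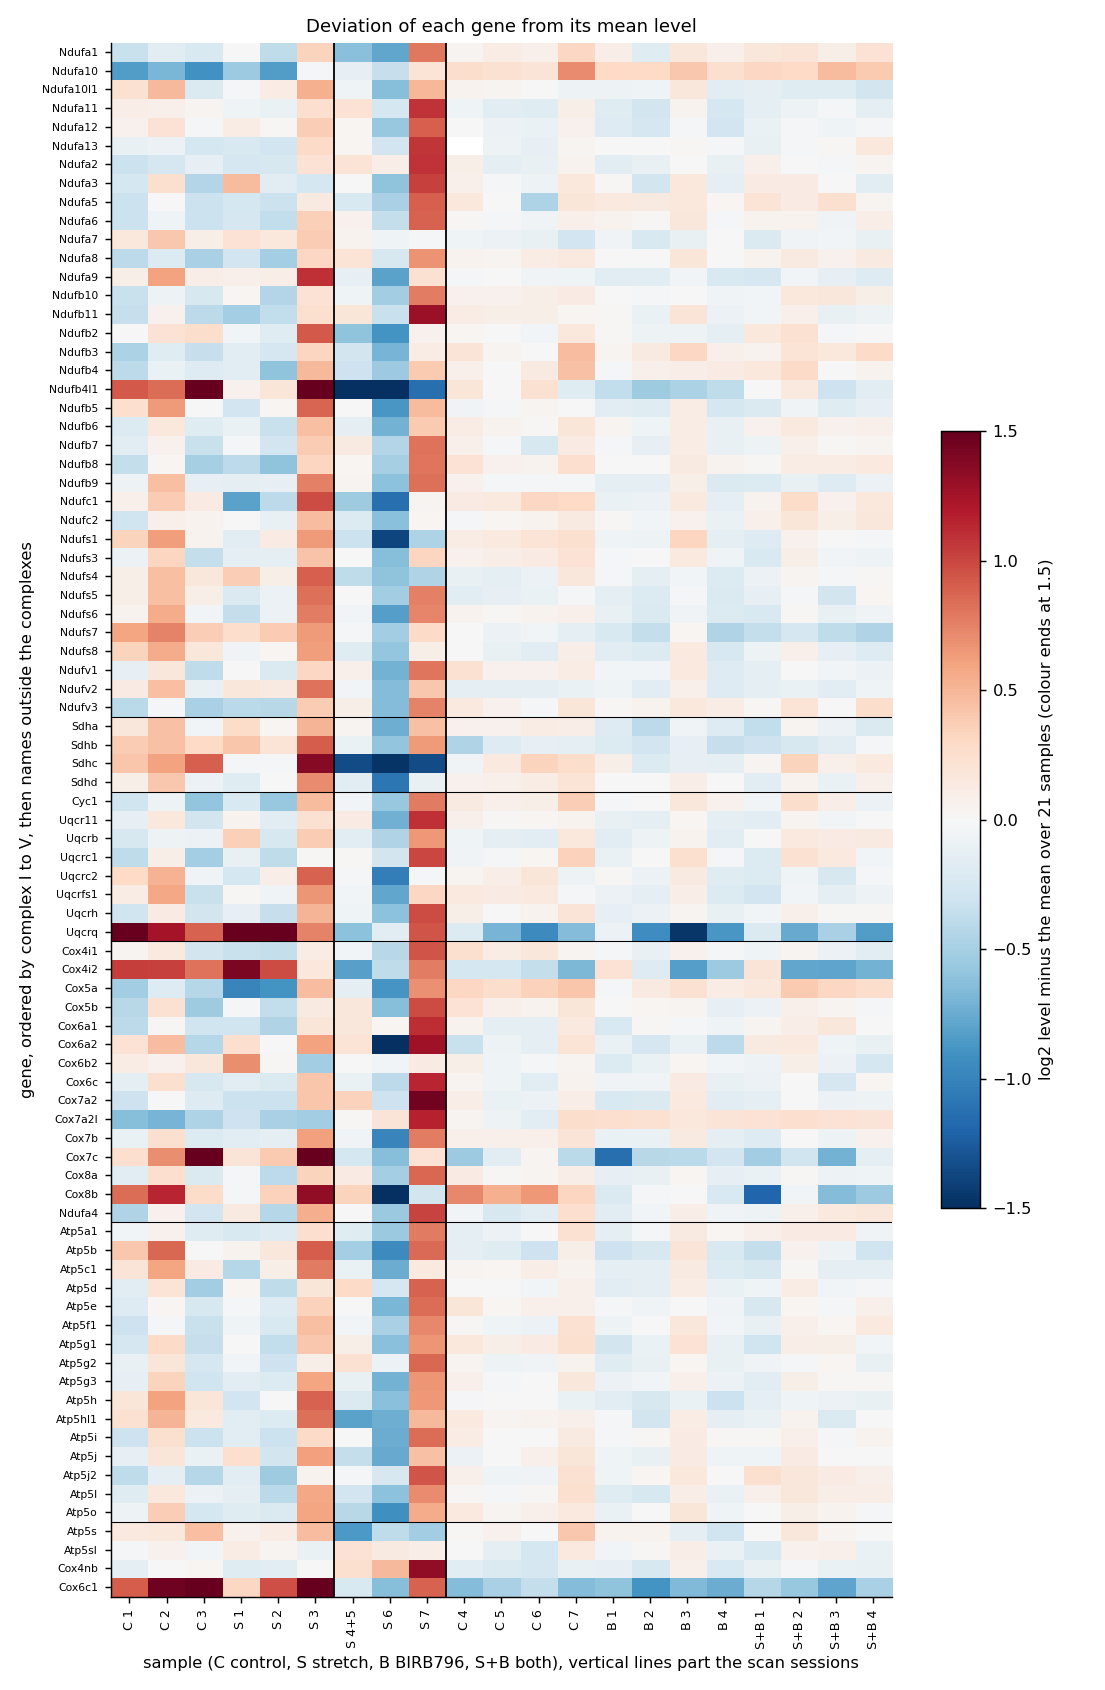
Level of each tested member, bar a gene not reported here, minus its own mean over samples (colour, log2, ending at 1.5 either way). Genes run down the side in the order of the complexes, with the 21 samples across, ordered by scan session. The white cell is a value left out. Stretch 6 is low and stretch 3 and 7 are high across most members, while the session 3 samples differ little.

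Other genes of the same machinery were read for comparison. In the fit of all samples, 0 genes passed in the lists of assembly factors (37 tested), carriers and energy transfer (21), mitochondrial ribosome (36), tricarboxylic acid cycle (18) and regulators of mitochondrial biogenesis (22). In session 3 alone, stretch with BIRB796 against control called 4 of the 21 carriers lower, where 4.33% of all genes were called lower and 3.27% higher. These were Ckmt2, the mitochondrial creatine kinase of striated muscle (-1.17 ± 0.24 SE, limma adjusted p 0.0218), Etfdh, which feeds electrons from fatty acid oxidation into ubiquinone (-0.40, limma adjusted p 0.0156), Ucp2 and Higd1a. The assembly factors Ttc19 (complex III) and Ndufaf3 (complex I) were called higher, at 0.28 and 0.32, and 1 of that list, LOC686506, and the ribosomal gene Mrps18a lower. BIRB796 alone called 2 carriers lower, Ckmt1 (-0.79) and Etfdh (-0.34), where 1.06% of all genes were called lower. Of the 18 tricarboxylic acid cycle genes, 17 were lower with BIRB796 (median -0.10) and 16 with both (-0.12), and 0 passed. Over all genes the medians were -0.03 and 0.04, with 45.1% higher with BIRB796 and 56.2% with both. Of the regulators, Ppargc1a, a coactivator of mitochondrial genes, gave -0.77 with stretch, -0.54 with BIRB796 and -0.61 with both. Esrrg gave 0.40, -0.82 and -0.59, Esrra -0.01, -0.12 and -0.16, and Tfam 0.08, -0.08 and 0.03. Nrf1 and Gabpa stayed within 0.11 of 0. Cytochrome c, Cycs, gave 0.35, 0.03 and 0.04, and citrate synthase, Cs, 0.22, -0.12 and 0.17. None of the 22 regulators passed in the fit of all samples or, for the comparisons within a session, in that session alone.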

How the data were processed

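Agilent 1-colour rat arrays carried Cy3-labelled total RNA, per the labels' protocols. Each deposited scanner file gives linear intensity per spot, from which Feature Extraction had subtracted background but with no scaling across arrays, per the file headers. A deposited table of log2 values, whose baseline is not stated, served as an alternative.

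Processed signals of 42877 gene spots were taken to log2, minus each array's 75th percentile. Outlier spots were dropped, at a cost of 293 probe values (Ndufa13 has none in control 4, and stays out of sample means). A probe had to be well above background on 4 or more arrays, and the probe with the highest mean stands for a gene. Sample means of a list use genes with a value in every sample. Of the 84 genes, 16 subunits had over 1 passing probe; these differed in sign in 37 of 96 gene and comparison pairs, by a median range of 0.10.

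Differences were fitted with limma 3.58.1 (lmFit and eBayes, R 4.3.3) on 21 samples with a scan session term, two-sided, Benjamini-Hochberg over 23487 genes, called at an adjusted p under 0.05. The fitting was also run on simulated data, which gave all samples the same spread for a gene, unlike the sessions here. Spread within a session sets the precision. 1 of the genes counted is not reported here. The members and lists were chosen with earlier results of these data known. Genes named include up to 4 of the highest and up to 4 of the lowest per comparison, called members, a core set and the isoform pairs. Others are singled out for groups that did not overlap. An exact permutation test intended for single members was not run, as limma gives their test. The alternatives (scaling, background, filter, probe choice, session or slide terms, samples left out, replicate block) are given in the closing section. Controls and stretch with the same number in session 1 shared a slide. Across genes, numbers 1 and 3 deviated together (r of 0.50 and 0.57). Number 2 gave 0.15, below control 2 with stretch 1 (0.22). In the BIRB796 groups, number 1, on slide 6 in both, gave 0.53, and numbers 2 to 4 gave 0.01 to 0.08. Whether the numbers mark pairs is therefore not settled, and a shared slide cannot be told apart from a shared culture. The main fit treats the samples as unpaired, and the replicate block is an alternative.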

Additional observations from a re-analysis of the deposited data

Results flagged for a closer look

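In 12 of 156 sets of samples checked, 1 sample lay far from the others of its group; chance gives about 1 in 20. Cox8b was at -0.89 in stretch 6, where the other stretch samples ran from 2.12 to 3.72. Cox7c, a dim probe, was at -4.17 in stretch 3 (others -7.05 to -6.02) and at -7.54 in BIRB796 replicate 1 (others -6.83 to -6.70). In BIRB796 replicate 3 the mean of complex V was 5.04 (others 4.81 to 4.83), Atp5b was at 3.70 (others 3.20 to 3.28) and Cox8a at 5.51 (others 5.35 to 5.37). In BIRB796 replicate 4, Ndufa5 was at 4.76 (others 4.87 to 4.89). In stretch with BIRB796 replicate 1, Cox4i2 was at -0.71 (others -1.70 to -1.61) and Uqcrb at 4.49 (others 4.62 to 4.64). Among the controls, Sdha was at 3.78 in replicate 2 (others 3.30 to 3.51), Cox4i1 at 5.42 in replicate 3 (others 5.73 to 5.94) and Uqcrb at 4.65 in replicate 7 (others 4.25 to 4.42).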

How the results depend on the processing

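Counts of called members stayed at 0 in every comparison under all alternatives but 3. A term for the array set, which pools sessions 2 and 3, gave 1 member for stretch against control (Sdhc). For stretch with BIRB796 against control, session 3 alone gave 1 and leaving out stretch 3, 6 and 7, chosen after seeing the data, gave 1, both Cox8b; its adjusted p ran from 0.0132 to 0.919 over the alternatives, and its log2 fold change from -1.35 to -0.88. Over all genes, the array set term called 1830 for stretch (0 with the session term), and session 3 alone called 421 for BIRB796 (against 0) and 1786 for both (against 18, and 1406 without stretch 3, 6 and 7). Leaving out each array in turn gave 0 to 0 members in every comparison, and up to 197 genes in all for both against control, without stretch 7. The members' medians then ran from -0.12 to 0.21 for stretch, -0.14 to -0.07 for BIRB796, -0.08 to -0.01 for both, 0.02 to 0.09 for stretch in the presence of BIRB796, -0.26 to 0.08 for both against stretch and -0.17 to 0.14 for the interaction; those that turned in sign did so without stretch 3. The median for both against control turned to 0.03 with array median scaling, and that for stretch in the presence of BIRB796 to -0.03 with quantile scaling. The replicate block gave 0 members in every comparison, and session 1 alone with the replicate block 0. Of 7491 values of named members under the alternatives, 111 moved by more than the spread between replicates, 3 passed the threshold and 0 turned in sign while called. The dim session 2, which holds stretch samples alone, limits what can be said of stretch.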

Other observations

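The 12 subunits encoded on mitochondrial DNA on the array, parts of complexes I, III, IV and V that the nuclear genes above complete, were also read. With BIRB796, 11 of 12 were lower than in control (median -0.16, all genes -0.03), and with stretch and BIRB796 7 of 12 were higher (median 0.03, all genes 0.04). In the presence of the inhibitor, 12 of 12 were higher with stretch than without (median 0.21; 61.2% of all genes were higher, with a median of 0.05). Without the inhibitor, 9 of 12 were lower with stretch and 3 higher (median -0.15, all genes 0.05). The interaction was above 0 for 12 of 12 (median 0.37), against 51.5% of all genes (0.01). Under the other scalings this held for 12 of 12 (0.28 to 0.34). Without the session term it held for 9 (0.19), with the array set term for 10 (0.20) and with slide as a random block for 12 (0.24). Stretch against control had 6 higher and 6 lower without the session term (median 0.01) and with the array set term (-0.01). For stretch in the presence of the inhibitor, slide as a random block gave 11 of 12 higher (0.10). The limma fit of all samples called 0 of the 12 in any comparison. At an unadjusted p under 0.05 there was 1 with stretch, 1 with BIRB796, 1 for the interaction and 0 in the other 3 comparisons. Session 3 alone also called 0 of these mitochondrial genes. For stretch in the presence of the inhibitor, 4 of 12 had an unadjusted p under 0.05 there, against 5.83% of all genes higher. The mean of the 10 with a value in every sample was 4.08, 4.01, 3.86 and 4.00 with BIRB796 and 4.39, 4.31, 4.28 and 4.03 with both, groups that overlap in 1 value. It was 4.09, 4.04, 4.05 and 4.40 in the session 3 controls. The difference between the inhibitor groups was 0.31 on slide 6 and 0.07 on slide 9, with 1 sample of both treatments on each. The nuclear members on the same slides differed by 0.002 and 0.03.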
